A study of Drosophila melanogaster with 4 samples.

Results

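The 10 genes described here are trafficking genes of pigment granules and lysosomes: garnet (g), ruby (rb), carmine (cm), orange (or), deep orange (dor), carnation (car), light (lt), pink (p), claret (ca) and Rab32. They were matched by their FlyBase symbols and were found as 10 of the 17409 gene rows of the deposited counts. Poly(A) RNA had been sequenced from seminal vesicles (2 libraries) and from testes (2 libraries) of adult male *Drosophila melanogaster* of the Oregon-R-modENCODE strain, 4 to 5 days old and raised in constant light. The seminal vesicle, which stores sperm, was dissected together with the testis terminal epithelium that adjoins it, so its libraries hold both. The replicates came from dissections on consecutive days, of animals handled in groups, and no genotype or treatment differed between the tissues. The comparison asks how these genes differ between the sperm-storing and the sperm-producing tissue.

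Pigment granules of the fly are lysosome-related organelles: they are built from endosomal membrane by the same machinery that carries cargo to lysosomes. The adaptor complex AP-3 sorts cargo into vesicles, the tethering complex HOPS brings late endosomes to lysosomes for fusion, BLOC complexes act in cargo sorting between endosomes and granules, and Rab32 is the small GTPase of lysosome-related organelles. The genes take their names from eye colours of mutants with too few or abnormal pigment granules. In the male the sheath of the adult testis also holds pigment cells, whose yellow colour is lost in flies without the white transporter.

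Gene counts per library were 13385256 and 11120405 in seminal vesicle and 14088989 and 15528462 in testis, so a count of 0 allows at most 0.224 and 0.27 CPM in seminal vesicle and 0.213 and 0.193 CPM in testis (3 counts of the total, counting error only). CPM is the count scaled to library size, corrected by the trimmed mean of M-values (TMM) except in these limits. Germline markers separated the tissues as labelled. All 11 genes of a germline list, such as the sperm protein genes Mst87F and dj, were lower in seminal vesicle under each of 4 scalings of the libraries, with summed levels of 510.1 and 1017 CPM in seminal vesicle against 8050 and 8842 CPM in testis. Sheath muscle markers such as Act57B and Mhc summed to 3587 and 2602 CPM in seminal vesicle against 58.4 and 53.4 CPM in testis, with 6 of 6 tested genes higher in seminal vesicle under the same 4 scalings. Of 7 genes listed for the epithelium of the seminal vesicle and ducts, 6 were higher in seminal vesicle and 1, grh, was lower, again under all 4. The list includes Nrx-IV and Ldh, and whether Ldh is particular to epithelium was not tested. In bulk tissue, fewer cells of a type and less RNA per cell cannot be told apart.

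All 10 genes passed the filter on low counts. With TMM scaling, 8 of the 10 were higher in seminal vesicle and 0 were lower at an adjusted p under 0.05, whereas spike-in scaling gave 3 higher and 2 lower and scaling by library size alone gave 5 higher and 1 lower. The background is high: 86.6% of the 11737 genes tested were called in either direction, 42.1% as higher in seminal vesicle and 44.5% as lower. Among protein-coding genes 45.0% were called higher in seminal vesicle. With spike-in scaling 27.9% of all genes were called higher and 54.3% lower, and with library size only 37.4% higher and 48.8% lower. With TMM, 4 of the 10 genes were called and over 2-fold higher in seminal vesicle, against 37.0% of all genes, and 3 were over 4-fold higher, against 26.7% of all genes. No member was lower at an unadjusted p under 0.05 with TMM (edgeR), and DESeq2 gave 6 higher and 0 lower, against 39.6% and 42.8% of all genes. Without testis replicate 1 or without testis replicate 2 the number higher was 5 of 10, against 36.7% and 36.6% of all genes. The median log2 fold change, seminal vesicle over testis, was 0.89 for the 10 genes and -0.11 for all tested genes. The median of all genes shifted to -0.49 with library size only and to -1.17 with spike-in factors, and the members' median stood 1.00 above it under TMM, library size only and spike-in scaling. Because a scaling shifts every gene by nearly the same amount, the constancy of this gap is not a separate result. Each tissue received another spike-in pool, so that spike-in scaling and tissue cannot be told apart.

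**Figure D1:**
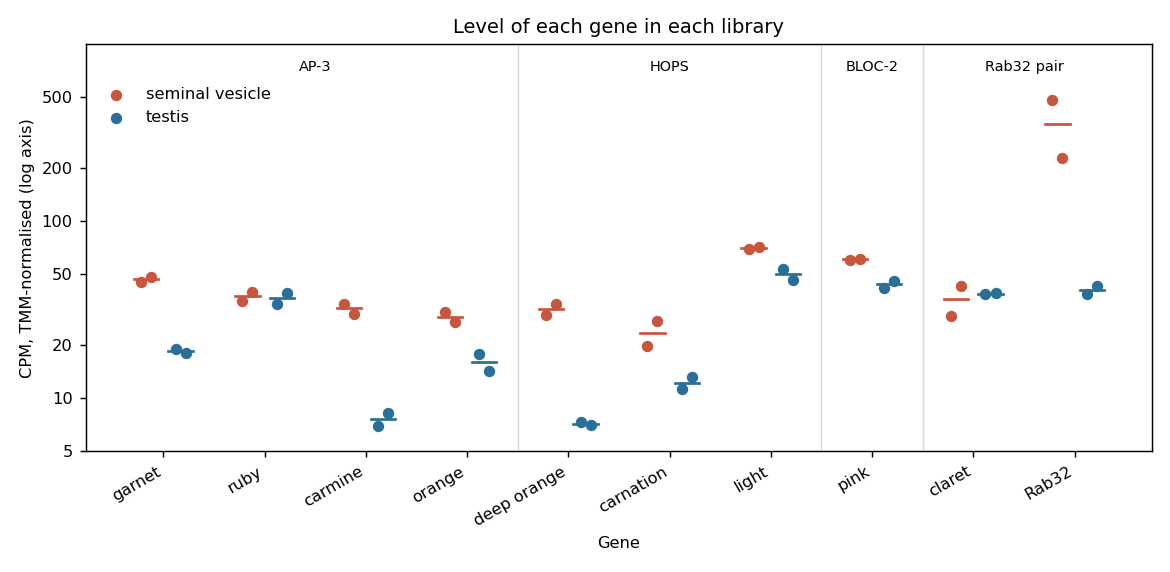
TMM-normalised CPM (log axis) of the 10 genes in each library, seminal vesicle left of testis; points are libraries and bars are means of 2. Seminal vesicle points lie above testis points for 8 genes and overlap them for ruby and claret. The share of all tested genes without such overlap was not counted, and 42.1% were called higher in seminal vesicle. Rab32 stands at 482 and 227.4 CPM in seminal vesicle against 38.5 and 42.8 CPM in testis. Under spike-in scaling the log2 fold changes of orange, carnation, light and pink, of those 8, and of ruby are below 0.

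**Figure D2:**
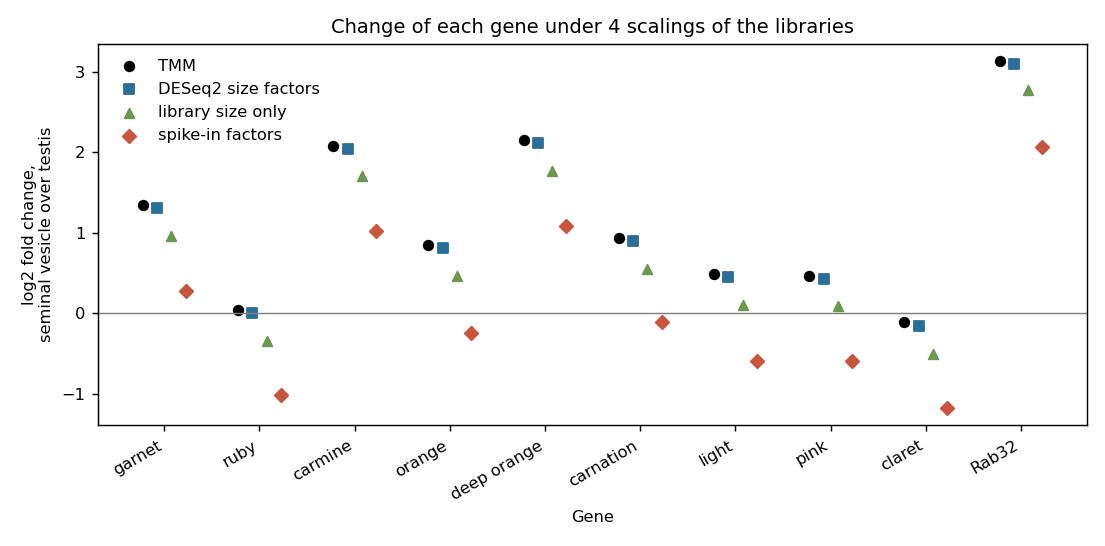
log2 fold change, seminal vesicle over testis, of each gene under TMM, DESeq2 size factors, library size only and spike-in factors. Spike-in scaling lowers every gene by about the same amount, which turns ruby, orange, carnation, light and pink below 0, puts claret further below 0 and leaves carmine at 1.03, deep orange at 1.09 and Rab32 at 2.07.

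The AP-3 complex has 4 subunits, each encoded here by a single gene. Garnet is its delta subunit, ruby the beta subunit, carmine the mu subunit, which recognises sorting signals, and orange the small sigma subunit. Carmine (X, 7009006 to 7011145, minus strand of the Release 6 assembly) stood at 34.2 and 30.01 CPM in the seminal vesicle libraries, against 6.94 and 8.28 CPM in the testis libraries. The tissues did not overlap, and the log2 fold change was 2.08 ± 0.18 (SE; adjusted p = 0.000129, quasi-likelihood test in edgeR, Benjamini-Hochberg over all genes). This is a 4.22-fold difference, and it was called in the same direction under all 13 alternative fits.

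Garnet (X, 13727204 to 13736278, minus strand) had 45.1 and 48.4 CPM in seminal vesicle, against 18.9 and 17.97 CPM in testis. Both seminal vesicle libraries were above both testis libraries by more than the replicates differed. Its log2 fold change was 1.34 ± 0.16 (adjusted p = 0.000425), and the call was kept under 12 of 13 alternatives, spike-in scaling being the exception (log2 fold change 0.27, adjusted p = 0.451).

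Orange (2R, 23967939 to 23968943, plus strand) reached 30.4 and 26.9 CPM in seminal vesicle, against 17.8 and 14.2 CPM in testis. The log2 fold change was 0.84 ± 0.18 (adjusted p = 0.00539), and -0.24 with spike-in scaling (adjusted p = 0.509). The call was lost with library size only (adjusted p = 0.073) and without testis replicate 2 (adjusted p = 0.074).

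Ruby (X, 4535635 to 4540626, minus strand) was the AP-3 gene that did not pass the test, at 35.3 and 39.97 CPM in seminal vesicle and 34.1 and 39.03 CPM in testis. The libraries of the tissues interleaved. Its log2 fold change of 0.04 ± 0.17 had a 95% interval of -0.39 to 0.47 (adjusted p = 0.833), while spike-in scaling gave -1.01 (adjusted p = 0.00427).

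The make-up of AP-3 transcripts can be given as a share within each library, which does not depend on how libraries are scaled. Per kilobase of exon, carmine made up 26.1% and 24.6% of the summed AP-3 level in seminal vesicle, against 10.6% and 13.7% in testis. Ruby made up 9.94% and 12.05% of it in seminal vesicle, against 19.2% and 23.8% in testis. Garnet took 13.9% and 15.96% in seminal vesicle and 11.7% and 11.97% in testis, and orange, the shortest, took 50.1% and 47.4% in seminal vesicle and 58.6% and 50.5% in testis. The tissues thus overlapped for none of these shares, and the gap was widest for carmine and ruby. The carmine to ruby ratio of reads was 0.968 and 0.751 in seminal vesicle, against 0.203 and 0.212 in testis. With 2 libraries in each tissue, an exact test of such shares cannot reach p under 0.05, and none was run.

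**Figure D3:**
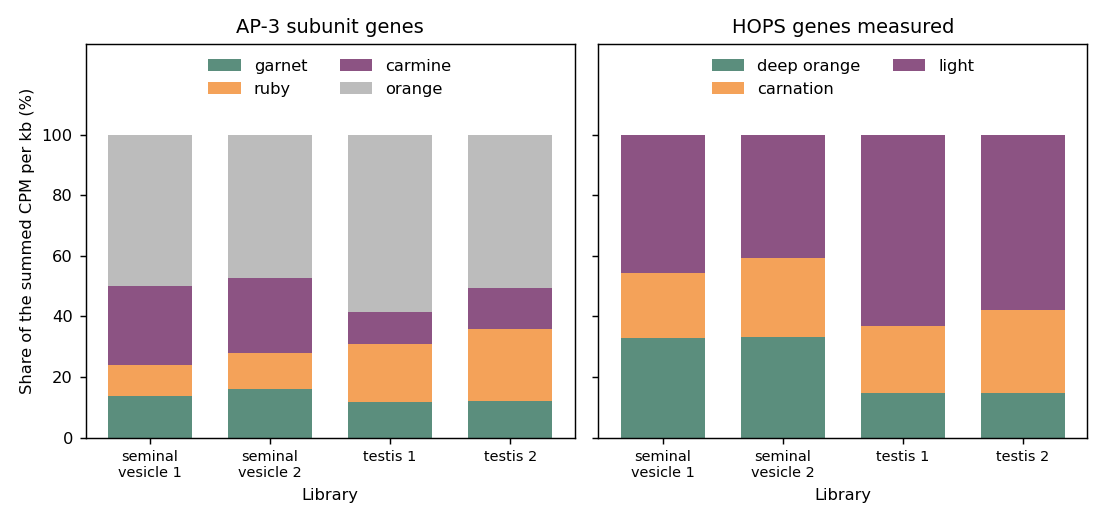
Share of the summed CPM per kilobase of exon (%) of the 4 AP-3 genes and of the 3 HOPS genes in each library, seminal vesicle left of testis. Carmine and deep orange take larger shares in both seminal vesicle libraries, and ruby and light take smaller ones.

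HOPS is represented by deep orange, the Vps18 subunit of its core, carnation, the Vps33A subunit that handles SNARE proteins, and light, the Vps41 subunit particular to HOPS. Deep orange (X, 1665052 to 1668451, plus strand) stood at 29.5 and 34.2 CPM in seminal vesicle, against 7.3 and 7.0 CPM in testis. It was the lowest of the 10 genes in testis per exon length, and its tissues did not overlap. The log2 fold change was 2.15 ± 0.17 (adjusted p = 9.45e-05), a 4.44-fold difference called in the same direction under all 13 alternatives.

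Carnation (X, 19566019 to 19569401, plus strand) had 19.7 and 27.2 CPM in seminal vesicle, against 11.3 and 13.07 CPM in testis. Its log2 fold change was 0.94 ± 0.21 (adjusted p = 0.00691), and -0.11 with spike-in scaling (adjusted p = 0.772). Without testis replicate 1 the adjusted p was 0.0512.

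Light (2L, 22924795 to 22943135, plus strand) was the most abundant of the HOPS genes, with 69.5 and 70.9 CPM in seminal vesicle, against 53.5 and 46.4 CPM in testis. The libraries did not overlap, but the change was small, with a log2 fold change of 0.49 ± 0.18 (adjusted p = 0.0441) and of -0.59 with spike-in scaling. The call was kept under 6 of 13 alternatives and lost, among others, with library size only (0.619), no filter (0.0861) and DESeq2 (0.102), and without testis replicate 1 (0.0925) or replicate 2 (0.188), all adjusted p-values. Within the libraries, light made up 45.6% and 40.6% of the summed level of these 3 genes per kilobase in seminal vesicle, against 63.1% and 57.9% in testis, while deep orange took 32.8% and 33.3% in seminal vesicle, against 14.6% and 14.8% in testis. The shares of carnation overlapped, at 21.6% and 26.1% in seminal vesicle and 22.3% and 27.3% in testis.

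Pink (3R, 8660903 to 8670684, minus strand) is the fly Hps5 gene, a subunit of BLOC-2, whose human counterpart is mutated in a form of Hermansky-Pudlak syndrome. It had 60.3 and 61.4 CPM in seminal vesicle, against 41.9 and 45.97 CPM in testis. As with light, the libraries did not overlap and the change was small: the log2 fold change was 0.47 ± 0.17 (adjusted p = 0.0411), and -0.59 with spike-in scaling. Its call was kept under 5 of 13 alternatives and lost, among others, with DESeq2 size factors (0.0541), DESeq2 (0.132) and without testis replicate 1 (0.188) or replicate 2 (0.104).

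Rab32 (2R, 9177864 to 9186342, minus strand), first known as lightoid, had the largest change of the 10 genes. It stood at 482 and 227.4 CPM in seminal vesicle, against 38.5 and 42.8 CPM in testis. Both seminal vesicle libraries were far above testis but differed from each other by 2.12 times, whereas the other 9 genes differed between the seminal vesicle libraries by at most 1.48 times. The log2 fold change was 3.13 ± 0.43 (adjusted p = 0.000868), with a 95% interval of 2.06 to 4.19. Leaving out seminal vesicle replicate 1 gave 2.50 and leaving out replicate 2 gave 3.56, and it was called under all 13 alternatives. Among all tested genes the size was not extreme, since 16.8% had a larger log2 fold change.

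Claret (3R, 29806811 to 29815047, plus strand) encodes a protein proposed as the exchange factor that activates Rab32. It did not pass the test, with 29.1 and 43.1 CPM in seminal vesicle and 38.6 and 39.3 CPM in testis. The testis values lay between the seminal vesicle values. The log2 fold change of -0.11 ± 0.23 had a 95% interval of -0.67 to 0.45 (adjusted p = 0.657), so a difference of the size seen for Rab32 lies outside it. The direction depended on the seminal vesicle library left out: the log2 fold change of claret was -0.43 without replicate 2 and 0.16 without replicate 1. With all 4 libraries claret was called lower with library size only (adjusted p = 0.0476) and spike-in scaling (-1.17, adjusted p = 0.000962). The read ratio of Rab32 to claret was 16.5 and 5.28 in seminal vesicle, against 0.997 and 1.09 in testis. Claret lies across from ncd on the opposite strand, sharing 317 bases or 4.51% of its exon length, and ncd had 37 and 29 counts in seminal vesicle, against 723 and 753 in testis. The part of those reads in the claret counts was not tested. No member shared exon bases with another gene of its own strand.

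**Figure D4:**
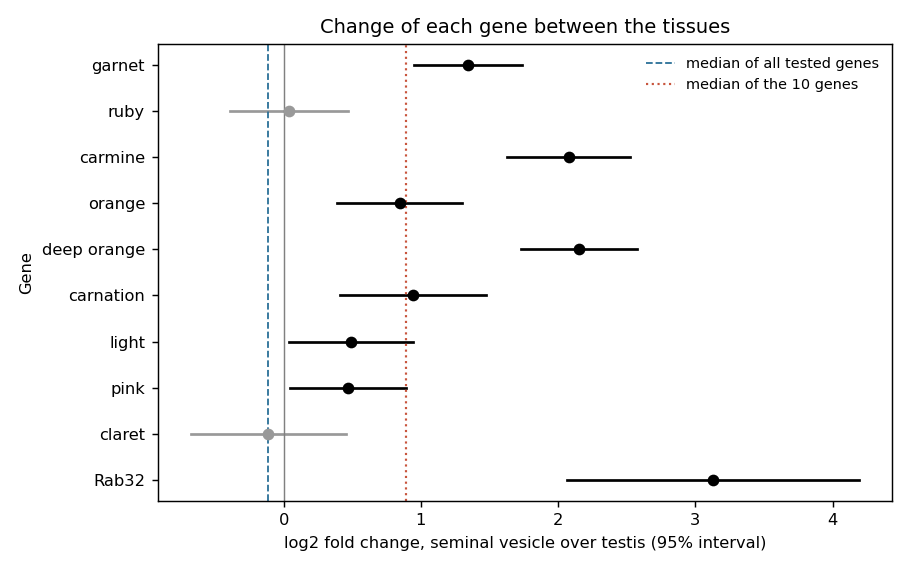
log2 fold change, seminal vesicle over testis, of each gene with its 95% interval (edgeR, TMM scaling); grey marks the genes not called, the dashed line the median of all tested genes (-0.11) and the dotted line the median of the 10 genes (0.89). Carmine, deep orange and Rab32 lie past 2, ruby and claret span 0, and under spike-in scaling ruby (-1.01), orange, carnation, light and pink take the opposite sign.

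In the comparison of levels between genes, CPM was divided by the summed exon length of each gene. In seminal vesicle Rab32 was highest at 86.9 ± 44.1 CPM per kilobase (SD, n = 2), followed by orange at 34.8 ± 3.05 CPM per kilobase. Pink and carmine followed at 18.5 ± 0.234 and 18.1 ± 1.67 CPM per kilobase, with overlapping libraries, and then light at 13.1 ± 0.185 CPM per kilobase. Garnet and deep orange overlapped at 10.6 ± 0.53 and 10.1 ± 1.06, ruby and carnation overlapped at 7.82 ± 0.68 and 7.32 ± 1.67, and claret was lowest at 5.14 ± 1.4 CPM per kilobase. In testis the order was orange, pink, Rab32, light, ruby, claret, carmine, garnet, carnation and deep orange. Orange had 19.4 ± 3.11 and deep orange 2.26 ± 0.0665 CPM per kilobase there. Among neighbours in the testis order, the libraries overlapped for Rab32 (9.95 ± 0.742) with light (9.31 ± 0.93 CPM per kilobase) and for carmine with garnet. The exon lengths join all annotated transcripts, of which Rab32 has 7, so these levels assume that the whole length is transcribed.

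By position, 5 of the 10 genes lie on the X, 2 on 2R, 2 on 3R and 1 on 2L. Of the 5 X-linked genes, garnet, carmine, deep orange and carnation were called higher in seminal vesicle with TMM and ruby was not. The background on the X was 50.5% of 1819 tested genes.

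The partners of these genes were followed in lists of related complexes. A list of 5 other tested genes covered HOPS, CORVET and a related tethering complex. With TMM, 0 were called higher in seminal vesicle and 1, Vps8, was lower, and 2 were lower with library size only or spike-in scaling. The HOPS genes Vps11 (log2 fold change 0.73, adjusted p = 0.0697) and Vps39 (0.38, adjusted p = 0.0678) were not called with TMM. In TMM-scaled CPM the seminal vesicle libraries of both lay above those of testis. The share of all tested genes without overlap between the tissues was not counted. The median log2 fold change of the 5 genes was -0.001 with library size only and -0.688 with spike-in scaling. Vps16A was not analysed under its identifier. At an unadjusted p under 0.05 the number higher was also 0, and DESeq2 gave 0. Vps8, the subunit particular to the early endosomal CORVET complex, had 22.8 and 37 CPM in seminal vesicle, against 94.1 and 101.9 CPM in testis (log2 fold change -1.72 ± 0.28, adjusted p = 0.00172), and was called lower under all 13 alternatives. Vps33B, of a related tethering complex, had 16 and 17.6 CPM in seminal vesicle and 20.3 and 20.8 CPM in testis, with adjusted p = 0.118. The median log2 fold change of this mixed list was 0.38 with TMM, against 0.94 for deep orange, carnation and light, so it does not describe the rest of HOPS alone.

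Among BLOC subunits, 4 of 6 tested genes were higher in seminal vesicle with TMM, at a median log2 fold change of 2.07. Spike-in scaling gave 4 higher and 1 lower, at a median of 0.995. Dysb, the dysbindin gene of BLOC-1, had 5.8 and 6 CPM in seminal vesicle, against 0.543 and 0.292 CPM in testis (log2 fold change 3.80 ± 0.36, adjusted p = 0.000164). The testis levels of Dysb rest on 9 and 5 counts. Blos1 had 11.1 and 12.4 CPM in seminal vesicle, against 3.44 and 2.63 CPM in testis, and Blos4 had a log2 fold change of 2.27 ± 0.28. Pldn, the pallidin gene, had 6.04 and 7.82 CPM in seminal vesicle and 7.78 and 5.43 CPM in testis (adjusted p = 0.835). Muted and Snapin, named after their values were seen, had 0 counts in all 4 libraries; whether reads could be assigned to them was not tested, so these counts are not read as absence.

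The other adaptor complexes had a higher median change than AP-3. All 9 genes of AP-1, AP-2 and clathrin were higher in seminal vesicle with TMM, at a median log2 fold change of 2.36, against 1.09 for the 4 AP-3 genes. With library size only 8 were higher, at a median of 1.98 against 0.71 for AP-3, and with spike-in scaling 6, at a median of 1.29 against 0.017 for AP-3. The gap between these medians is nearly fixed under such rescaling. AP-1sigma had 105.5 and 125 CPM in seminal vesicle, against 9.53 and 10.9 CPM in testis, and AP-1-2beta had 178.4 and 193 CPM in seminal vesicle, against 31.5 and 27.9 CPM in testis. The clathrin heavy chain gene Chc stood at 781.1 and 947.5 CPM in seminal vesicle, against 165.1 and 157.5 CPM in testis, and the light chain gene Clc had a log2 fold change of 1.88 ± 0.23 with TMM and 0.81 with spike-in scaling (adjusted p = 0.0642). No test set AP-3 against these complexes.

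**Figure D5:**
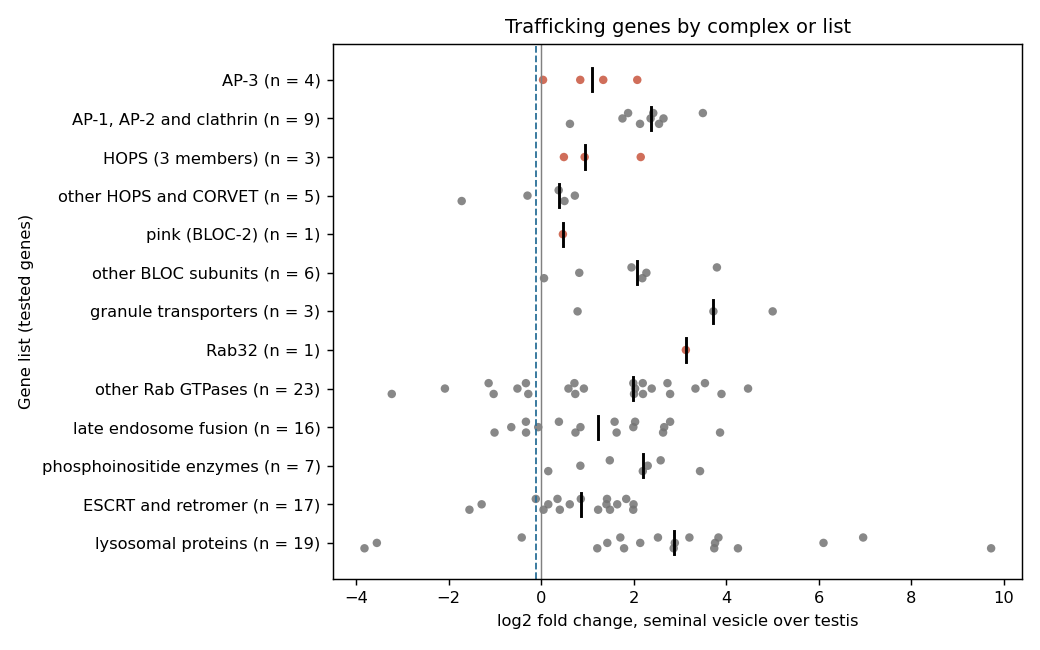
log2 fold change, seminal vesicle over testis, of every tested gene by complex or list with TMM scaling; red points are the 10 genes by role (claret apart), grey points their partners, black bars list medians and the dashed line the median of all tested genes. The AP-1, AP-2 and clathrin median is 2.36 and the AP-3 median 1.09. The other HOPS and CORVET list includes genes of a related tethering complex. With spike-in scaling its median and that of ESCRT and retromer are below 0.

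Rab32 was not alone among Rab GTPases. Among 23 other Rab genes, 16 were higher in seminal vesicle and 4 lower with TMM, and 12 higher and 7 lower with spike-in scaling, at a median log2 fold change of 1.99 with TMM. Rab4, of early endosomes, had 239.6 and 255.3 CPM in seminal vesicle, against 11.5 and 10.8 CPM in testis, and Rab9 had 81.05 and 49.7 CPM in seminal vesicle, against 4.58 and 4.2 CPM in testis. The late endosomal Rab7 had 316.4 and 371.2 CPM in seminal vesicle, against 90.5 and 77.9 CPM in testis, so that Rab32 was above Rab7 in seminal vesicle replicate 1 and below it in replicate 2, in CPM not divided by length. Across all pathway lists without the members, 72 of 101 tested genes were higher in seminal vesicle and 11 lower with TMM, at a median log2 fold change of 1.64. Under spike-in scaling 46 were higher and 23 lower, at a median of 0.58.

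The lysosomal list had 16 of 19 tested genes higher in seminal vesicle and 2 lower with TMM, and 12 higher and 3 lower with spike-in scaling. The cathepsin L gene CtsL1 had 2638 and 2732 CPM in seminal vesicle, against 195 and 182.5 CPM in testis. The membrane protein gene Lamp1 had 1048 and 1177 CPM in seminal vesicle, against 213.1 and 173.8 CPM in testis. Cln3, the fly counterpart of the Batten disease gene, had 206.7 and 309.3 CPM in seminal vesicle, against 0.302 and 0.292 CPM in testis (log2 fold change 9.72 ± 0.44, adjusted p = 3.12e-05). Its testis levels rest on 5 counts in each library, close to the limits of 0.213 and 0.193 CPM, so the size of the change depends on few reads. The hexosaminidase gene Hexo2 had a log2 fold change of 6.96 ± 0.35. With TMM the median log2 fold change was 2.86 for the lysosomal list, against 0.89 for the 10 genes.

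Genes of endosomal sorting and fusion were mixed in direction. Of 17 ESCRT and retromer genes, 11 were higher in seminal vesicle and 2 lower, and with spike-in scaling 3 were higher and 5 lower. TSG101, of the ESCRT-I complex, had 142.1 and 170.5 CPM in seminal vesicle, against 457.1 and 457.8 CPM in testis, and was called lower under all 13 alternatives. Vps20 had 53.1 and 52.5 CPM in seminal vesicle, against 13.5 and 13.01 CPM in testis, lsn had a log2 fold change of 1.99 ± 0.17, and Snx3 was not called (adjusted p = 0.182). Of 16 genes of late endosome fusion, 10 were higher in seminal vesicle and 2 lower with TMM, and 6 higher and 5 lower with spike-in scaling. Plekhm1, an adaptor that binds HOPS in mammals, had 33.5 and 33.3 CPM in seminal vesicle, against 2.29 and 2.28 CPM in testis (log2 fold change 3.87 ± 0.18, adjusted p = 3.12e-05). Rab5, of early endosomes, had 334.7 and 378.8 CPM in seminal vesicle, against 57.1 and 46.4 CPM in testis. Of 7 phosphoinositide enzymes, 6 were higher in seminal vesicle with TMM, and with spike-in scaling 4 were higher and 1 lower. Pi3K59F, the lipid kinase Vps34, had a log2 fold change of 3.43 ± 0.21 and FIG4 of 2.58 ± 0.18. The myotubularin gene mtm had 63.3 and 62.4 CPM in seminal vesicle, against 21.7 and 23.3 CPM in testis, and Uvrag had 33.6 and 38.4 CPM in seminal vesicle, against 19.96 and 20.01 CPM in testis. With spike-in scaling neither mtm nor Uvrag was called.

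The 3 tested transporters that load pigment precursors into granules were higher in seminal vesicle with TMM, and st and bw also with spike-in scaling. The brown gene bw had 105.7 and 23.5 CPM in seminal vesicle, against 1.99 and 2.04 CPM in testis (log2 fold change 5.00 ± 0.80, adjusted p = 0.00164). Leaving out seminal vesicle replicate 1 gave 3.55, and leaving out replicate 2 gave 5.70. The scarlet gene st had 5.71 and 1.29 CPM in seminal vesicle, against 0.241 and 0.292 CPM in testis, from 4 and 5 counts (log2 fold change 3.72 ± 0.86, adjusted p = 0.00732). Its value was 2.24 without seminal vesicle replicate 1 and 4.37 without replicate 2, and its call was lost without either testis library. Their partner white (w) had 21.4 and 13.3 CPM in seminal vesicle, against 10.01 and 10.2 CPM in testis, with a log2 fold change of 0.79 ± 0.26 with TMM (adjusted p = 0.028) and -0.28 with spike-in scaling. The call of w was kept under 7 of 13 alternatives and lost, among others, without seminal vesicle replicate 1 (0.077). Of 9 tested genes of pigment synthesis and transport, a list that includes these transporters, 9 were higher in seminal vesicle with TMM and 7 with spike-in scaling. One of them, pr, of pteridine synthesis, had 31.99 and 30.01 CPM in seminal vesicle, against 8.81 and 7.18 CPM in testis.

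The excess of seminal vesicle replicate 1 over replicate 2 seen for Rab32 was shared by the transporters, at 4.5 times for bw, 4.44 for st and 1.61 for w, against 2.12 for Rab32. The pigment list that includes these transporters did not share it as a whole. Of its 10 measured genes, 6 were higher in replicate 1 and 4 in replicate 2. Of 7 measured genes of an accessory gland and ejaculatory duct list, 5 were higher in seminal vesicle replicate 1 than in replicate 2. The share of all genes higher in replicate 1 was not counted, so the counts of both lists have no background. Est-6, an esterase of the ejaculatory duct, which held most of the sum, had 346.7 and 168.2 CPM in seminal vesicle, against 10.01 and 9.92 CPM in testis, and its log2 fold change was 4.09 without seminal vesicle replicate 1 and 5.11 without replicate 2. The other 2, named after their values were seen, did not share the excess: EbpII had 1.14 and 2.57 CPM in seminal vesicle, and SP, the sex peptide gene of the accessory gland, had 1.39 CPM in both seminal vesicle libraries and 0 counts in both testis libraries. The 7 genes summed to 395.4 and 186.2 CPM in seminal vesicle, against 19.0 and 17.03 CPM in testis, and 5 of 6 tested genes were higher in seminal vesicle. Acp36DE, with 24.3 and 9.22 CPM in seminal vesicle and 8.565 and 6.59 CPM in testis, was not called (log2 fold change 1.16, adjusted p = 0.0519). It changed with the library left out, to 0.30 without seminal vesicle replicate 1 and to 1.67 without replicate 2.

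Within seminal vesicle, 6 of 6 muscle markers were higher in replicate 1 than in replicate 2, and 9 of 11 germline markers were lower in it. Of the 7 genes listed for epithelium 1, Ldh, was higher in replicate 1 and 6 in replicate 2, and of the 10 members 3 and 7. The share of all genes higher in replicate 1 is not given here, so these counts have no background. The germline exceptions, named after their values were seen, were vas, with 1.96 and 0.643 CPM in seminal vesicle, and aly, with 0.163 and 0 CPM. Of 4 tested fat body and hemocyte markers, 3 were higher in seminal vesicle with TMM, and 2 were higher and 1 lower with spike-in scaling. The 7 genes of that list, such as apolpp and Ppn, summed to 182.3 and 220.3 CPM in seminal vesicle, against 47.3 and 53.1 CPM in testis, with Fbp1 at 0 counts in all libraries. Neuronal markers were mixed in direction, with 2 of 3 tested genes higher in seminal vesicle and 1 lower with TMM, and 1 in each direction with spike-in scaling. They summed to 32.5 and 45.3 CPM in seminal vesicle, against 22.7 and 24.7 CPM in testis. nSyb had 20.8 and 31.3 CPM in seminal vesicle, against 9.59 and 7.23 CPM in testis, whereas brp had 2.12 and 3.11 CPM in seminal vesicle, against 11.5 and 15.8 CPM in testis (log2 fold change -2.40).

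Cyst and hub cell markers were mixed too: 2 of 6 were higher in seminal vesicle and 3 lower with TMM, at a median log2 fold change of -0.39. The genes higher in seminal vesicle were Fas3, also an epithelial gene, with 466.3 and 510.7 CPM in seminal vesicle against 19.3 and 18.3 CPM in testis, and hh, with 132.3 and 159.8 CPM in seminal vesicle against 5.07 and 4.2 CPM in testis. Those lower in seminal vesicle were tj (log2 fold change -1.12), zfh1 (-1.98) and upd1 (-3.52), which like hh were named after their values were seen, while eya was not called with TMM and was called lower with spike-in scaling. The 6 summed to 647.5 and 722.3 CPM in seminal vesicle, against 92.1 and 97.3 CPM in testis. The part of these marker lists in the Rab32 difference was not tested. Of 6559 genes with a mean of 10 CPM or more in seminal vesicle, 9.65% differed between its replicates by more than Rab32.

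Over the 4 libraries, the pathway genes whose centred log2 CPM lay nearest to Rab32 were st (Euclidean distance 0.70), RabX6 (0.79) and the cathepsin D gene cathD (0.81). With 4 libraries of 2 tissues this likeness is mostly that of the difference between tissues.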

How the data were processed

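The authors deposited 1 file of raw read counts per gene for each library. Per the submitters' processing notes, CASAVA 1.8.2, TopHat2 2.1.0 and HTSeq 0.6.1p1 were used, with FlyBase release 6.06 per the series text and a stranded kit per the labels. The strand setting of counting is not given in the sources used here; at least 10 counts were held by 84 of 129 genes lying inside exons of the opposite strand but by 8 of 362 on the same strand. The 96 spike-in and 5 summary rows (the latter 11.0% to 14.2% of all counts in a file) were left out. Symbols and Release 6 positions came from Ensembl release 115, in which 17172 gene rows matched.

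Genes were filtered with filterByExpr (minimum count 10, minimum total 15), scaled with TMM and tested by robust quasi-likelihood in edgeR 4.0.16 and R 4.3.3, seminal vesicle over testis, with Benjamini-Hochberg adjustment over all 11737 genes and a threshold of 0.05. The standard error is the log2 fold change over the square root of F. The steps were tested on simulated counts. Nothing states that replicates came from separate animals beyond the dissection days, so p-values measure the spread between these libraries.

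The members, lists and named genes were chosen with earlier results of these data known. All members are named; in each list, the 2 genes of highest mean log2 CPM (prior count 2) and, for pathway lists, up to 2 called genes of largest change. Of 190 list entries, 5 were unmatched and 5 not analysed here under their identifier. Alternatives were other scalings and filters, DESeq2 1.42.0, limma 3.58.1 voom, a replicate block, a threshold of 0.01 and each library left out. Promoter letters, planned as a description, were not searched.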

Additional observations from a re-analysis of the deposited data

How the results depend on the processing

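With 13 alternative fits, carmine, deep orange and Rab32 kept their call in each. Spike-in factors gave 3 members higher and 2 lower in seminal vesicle, 3272 genes of all higher, and 46 pathway genes higher and 23 lower. Library size only gave 5 members higher and 1 lower, and 18 pathway genes lower. Leaving out a library gave 5 to 8 members higher and 0 to 1 lower; the low number came without either testis library. In those 4 fits 36.6% to 42.8% of all genes were higher and 36.5% to 46.0% lower, the lower shares also without a testis library. Such fits take the spread of the reduced tissue from the other. Directions turned with spike-in factors for ruby (-1.01), orange (-0.24), carnation (-0.11), light (-0.59), pink (-0.59), Pldn (-1.02), w (-0.28), Uvrag (-0.22), Snx3 (-0.71) and eya (-0.73). They turned with library size only for ruby (-0.34), Pldn (-0.32), Snx3 (-0.027) and eya (-0.047), and with no filter for ruby (-0.023) and Pldn (-0.0017). Without a library, ruby ran from -0.058 to 0.22, claret from -0.43 to 0.16 and Pldn from -0.13 to 0.41. Spike-in factors moved the median of all genes to -1.17, from -0.11 with TMM. Each tissue received another spike-in pool, so that this shift and tissue cannot be told apart. Beyond the definition of each scaling, the cause of these turns was not tested. The replicate block left 6 members higher, ending the calls of light (0.105) and pink (0.109) and calling Acp36DE (0.00467); the replicate numbers are not stated to pair samples, and over 11737 genes the replicate differences of the tissues correlated at 0.07. DESeq2 and no filter also gave 6. With 2 libraries a tissue, small changes such as those of light and pink are at the limit of detection.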
